A study of Mus musculus with 16 samples.

Results

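The plasminogen activators Plat and Plau, the urokinase receptor Plaur and 5 serpins (Serpine2, Serpinb2, Serpinf1, Serpinh1 and Serping1) were followed across 16 RNA-seq libraries of 2 mouse mammary tumour cell lines. The 8 genes were taken from the deposited count table by their mouse Entrez identifiers, and all 8 were found among its 19665 rows. Both lines carry the MMTV-PyMT transgene on the FVB/N strain, in which a mammary-active viral promoter drives the polyoma middle T oncogene. Line 631 is wild type for Pygo2 (WT), a chromatin-binding co-factor of Wnt signalling. Line 828 is homozygous for an A342E knock-in allele of Pygo2 (AE). Each genotype is a single line, so genotype and line cannot be told apart. Each line was cultured untreated or with TGFb at 2 ng/ml for 4 days, and untreated or with Wnt3a at 100 ng/ml for 3 days, which made 8 groups of 2 libraries. The labels do not say whether the 2 libraries of a group came from separate cultures, so the p-values rest on a spread between samples that may be technical only.

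Plasminogen is a circulating zymogen that is cut to the active protease plasmin by tissue-type (Plat) or urokinase-type (Plau) activator. Urokinase is held at the cell surface by its receptor Plaur, and plasmin made there degrades fibrin and other matrix proteins and activates growth factors and matrix metalloproteinases. Serpins are a superfamily of proteins, most of which trap serine proteases in an irreversible complex. Serpine2 (protease nexin 1) inhibits thrombin and urokinase, and Serpinb2 (PAI-2) is an inhibitor of urokinase that is largely retained inside the cell. Serpinf1 (PEDF) is a secreted serpin without protease-inhibiting activity, known as an anti-angiogenic factor. Serpinh1 (HSP47) is a collagen chaperone of the endoplasmic reticulum, and Serping1 is the inhibitor of the complement C1 proteases. In mammary tumours the urokinase system is known for its link to invasion.

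Total counts ran from 20530538 to 26191846 per library. Levels are given as CPM, the read counts of a gene relative to the library total, after TMM scaling, which corrects for differences in library composition. Epithelial markers were present in all groups: group means of Epcam, Krt8, Krt18 and Cdh1 lay between 182 and 784 CPM. Of the 14 epithelial markers listed, 10 to 13 reached a mean of 1 CPM in a group. Krt19 was at 0 in the WT groups with TGFb and untreated at 3 days. By the calls defined below, 6 of 13 tested fell and 0 rose with TGFb in WT (12.9% and 14.7% of all genes), and 2 fell in AE (4.32%). In untreated AE 6 were lower and 1 higher (26.4% and 27.4%). The summed level of 11 fibroblast markers differed between the lines, at 12.5 to 18.8 CPM in untreated WT libraries and 268 to 581 CPM in untreated AE libraries. The sum of 8 endothelial markers was 0.49 to 1.41 CPM in untreated WT and 14.3 to 48.2 CPM in untreated AE libraries, where 1 of the 8 reached 1 CPM as a group mean, and Tie1 and Emcn were at 0. Of 3 endothelial markers tested, 1 was called higher and 1 lower in untreated AE, and their median log2 difference was -0.44. The endothelial sum therefore does not stand for the set. The sum of 6 immune markers was at most 8.48 CPM in any library. The 3-day untreated replicates stood further apart than the 4-day ones (SD of the log2 ratio between replicates over genes 0.97 against 0.38 in WT and 0.82 against 0.27 in AE). Counts of a bulk culture do not tell fewer cells of a type from less RNA per cell.

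All 8 genes are annotated as protein coding in GRCm38.p6. Plat has 14 exons and lies on the plus strand at chr8:22757722-22782848. Plau has 11 exons on the plus strand at chr14:20836662-20843388, and Plaur has 7 exons on the plus strand at chr7:24460937-24475970. Serpine2 has 9 exons on the minus strand at chr1:79794317-79858665, and Serpinb2 has 8 exons on the plus strand at chr1:107500892-107525600, where the GENCODE M21 model of its neighbour Serpinb10 overlaps it on the same strand. Serpinf1 has 8 exons on the minus strand at chr11:75410029-75422623. Serpinh1 has 5 exons on the minus strand at chr7:99345375-99353239, and Serping1 has 8 exons on the minus strand at chr2:84765360-84775444.

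The RefSeq promoter table of GRCm38.p6 held a start for 5 of the 8 genes (Plaur, Serpine2, Serpinb2, Serpinf1 and Serpinh1). The 250 bases before the start are shown for the 4 of these that were called in the TGFb response of the WT line, since 3 of them rose there and Serpinb2 fell. They are written 5′ to 3′ on the gene's own strand, and capitals mark matches to the motifs named after them. They lie at chr1:79858666-79858915 (minus strand) for Serpine2, chr1:107511173-107511422 (plus strand) for the more upstream of the 2 Serpinb2 starts, chr11:75422624-75422873 (minus strand) for Serpinf1 and chr7:99353240-99353489 (minus strand) for Serpinh1. Both Serpinb2 starts lie inside the gene span given above, which begins at chr1:107500892.
Serpine2: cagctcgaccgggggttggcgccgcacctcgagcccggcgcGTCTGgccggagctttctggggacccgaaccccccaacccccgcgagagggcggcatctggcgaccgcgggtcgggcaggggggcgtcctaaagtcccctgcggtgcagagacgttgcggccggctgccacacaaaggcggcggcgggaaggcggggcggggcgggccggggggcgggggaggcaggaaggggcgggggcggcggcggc
Serpinb2: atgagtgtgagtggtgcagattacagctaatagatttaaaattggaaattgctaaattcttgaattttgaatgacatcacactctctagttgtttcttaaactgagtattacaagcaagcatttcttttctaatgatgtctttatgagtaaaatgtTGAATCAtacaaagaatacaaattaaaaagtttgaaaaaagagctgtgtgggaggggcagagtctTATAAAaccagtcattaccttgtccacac
Serpinf1: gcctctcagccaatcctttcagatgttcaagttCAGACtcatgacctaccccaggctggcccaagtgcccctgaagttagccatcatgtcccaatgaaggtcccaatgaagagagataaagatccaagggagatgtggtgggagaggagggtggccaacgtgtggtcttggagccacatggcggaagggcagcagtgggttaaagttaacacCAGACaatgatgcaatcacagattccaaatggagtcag
Serpinh1: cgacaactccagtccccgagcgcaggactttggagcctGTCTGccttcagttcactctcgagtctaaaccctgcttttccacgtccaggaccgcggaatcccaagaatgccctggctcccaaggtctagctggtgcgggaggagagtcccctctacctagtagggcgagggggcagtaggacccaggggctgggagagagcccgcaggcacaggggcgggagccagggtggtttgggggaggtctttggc

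The SMAD-binding letters CAGAC, searched on both strands, occurred 2 times before Serpinf1 (217 and 38 bases before the start) and 1 time each before Serpine2 (209) and Serpinh1 (212), and had no match before Serpinb2 or Plaur. Of 32851 promoters of the same length, 42.2% held these letters. The AP-1 letters TGANTCA, also on both strands, matched before Serpinb2 (94 bases before the start) and before Plaur (69), and 6.75% of promoters held them. The Serpinb2 sequence alone of the 5 held the TATA-box letters TATAAA on the given strand, 29 bases before the start, against 7.59% of promoters. Counted from the other Serpinb2 start, the TATAAA letters lay 116 bases and the TGANTCA letters 181 bases before it. The TCF/LEF letters CTTTGAA or CTTTGAT (7.48% of promoters), the TEAD letters GGAATG (12.6%) and the heat-shock letters GAANNTTC (6.69%), each on both strands, had no match in any of the 5. A further measure in which the sequences differ is GC content, which was 78.8% for Serpine2, 63.6% for Serpinh1, 51.6% for Serpinf1 and 32.4% for Serpinb2. A match describes letters in a window and is not evidence of binding.

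For each gene 7 comparisons were made. They are the response to TGFb and to Wnt3a in each line, AE against WT over the untreated libraries of both times, and, for each factor, the response of AE less that of WT (the line difference). A gene is called where its Benjamini-Hochberg adjusted p in edgeR's quasi-likelihood test, over 13172 genes tested, is under 0.05. Serping1 was below the filter of 1 CPM in 2 libraries and was not tested, so counts are out of 7 genes. The members were chosen with earlier results of these data known, so their counts beside the shares of all genes describe and do not test. Serpinf1 passed the filter through the AE line and the TGFb-treated WT libraries, and Serpinb2 through the WT line and the Wnt3a-treated AE libraries. With TGFb, 4 genes rose and 1 fell in WT, where 14.7% of all genes tested rose and 12.9% fell (27.6% called in all). In AE, 4 rose and 0 fell with TGFb, against 6.09% and 4.32% of all genes (10.4% in all). With Wnt3a, 2 rose and 0 fell in WT (2.26% and 2.02% of all genes, 4.28% together), and 2 rose and 1 fell in AE (4.59% and 4.74%, 9.33% together). Between the untreated lines, 2 were higher and 5 lower in AE, against 27.4% and 26.4% of all genes (53.8% in all).

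The members' median log2 change stood beside that of all genes tested at 0.73 against 0.06 for TGFb in WT and 1.49 against -0.00 for TGFb in AE. It was 1.13 against 0.01 for Wnt3a in WT, 0.23 against -0.03 for Wnt3a in AE and -1.98 against 0.01 for AE against WT. The untreated libraries serve both the responses and the comparison of the lines, so these comparisons are not independent of each other.

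**Figure D1:**
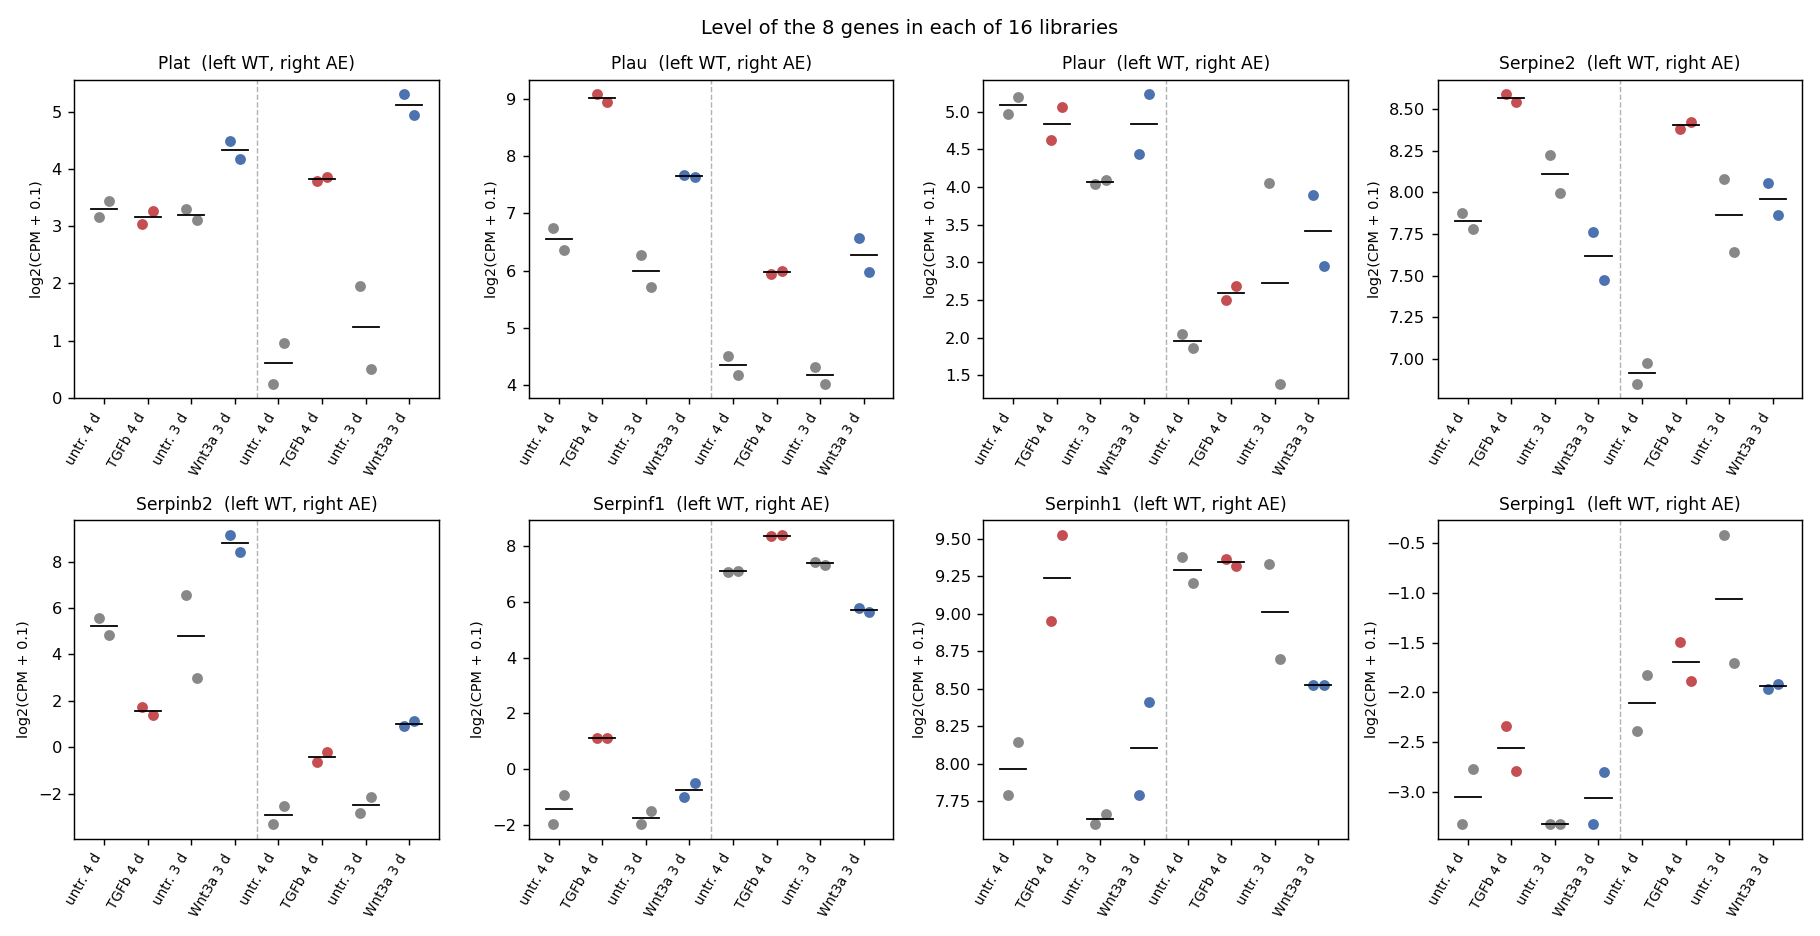
Level of each of the 8 genes in each of the 16 libraries, as log2(CPM + 0.1), with 1 panel a gene on its own axis. Points are libraries (grey untreated, red TGFb, blue Wnt3a), and bars are group means of the plotted values. The dashed line separates WT on the left from AE on the right. Serpinf1 lies far higher in AE. Serpinb2 lies far higher in WT untreated and with Wnt3a, while with TGFb its mean was 2.88 CPM in WT and 0.66 CPM in AE.

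On the scale of CPM per kilobase of transcript, which allows genes to be set beside each other, the untreated WT line had Serpine2 (mean 114) and Serpinh1 (98.9) at the top, with library ranges that overlapped. Plau (34.0), Serpinb2 (22.5) and Plaur (16.8) followed and also overlapped among themselves. Plat (3.75) came next, and its range overlapped that of Serpinb2, which reached down to 3.93 in one library. Serpinf1 (0.133) was lower and Serping1 (0.00667) last. In the untreated AE line the order was Serpinh1 (254), Serpinf1 (83.2), Serpine2 (80.5), Plau (8.21), Plaur (4.42), Plat (0.799), Serping1 (0.159) and Serpinb2 (0.0297). There the ranges of Serpinf1 and Serpine2 overlapped, as did those of Plau and Plaur and those of Serping1 and Serpinb2.

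Plau, the urokinase-type activator, rose with both factors in both lines. In WT it went from 107 and 82.2 CPM untreated to 542 and 494 CPM with TGFb, and in AE from 22.8 and 18.0 CPM to 61.6 and 64.0 CPM. Treated and untreated libraries did not overlap in either line. The log2 fold change with TGFb was 2.46 ± 0.26 (SE) in WT (adjusted p = 2.9e-05) and 1.62 ± 0.26 in AE (adjusted p = 0.0022). With Wnt3a, Plau went from 77.2 and 52.4 CPM to 203 and 198 CPM in WT, and from 19.9 and 16.2 CPM to 95.1 and 62.6 CPM in AE. Those changes were 1.63 ± 0.26 (adjusted p = 0.0042) and 2.13 ± 0.26 (adjusted p = 3.4e-04). In a fit of the 3-day libraries alone, the WT change with Wnt3a had the same size and an adjusted p of 0.11. Untreated AE libraries all lay below untreated WT libraries, with a log2 difference of -2.03 ± 0.19 (adjusted p = 2.1e-06). The line difference was not called for either factor: it was -0.83 for TGFb (95% interval -1.61 to -0.05, adjusted p = 0.21) and 0.50 for Wnt3a (-0.28 to 1.27, adjusted p = 0.43). The TGFb difference was called in the 4-day libraries alone (-0.84, adjusted p = 0.019) and with the GC and length correction (-0.99, adjusted p = 0.038).

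Plat, the tissue-type activator, rose with both factors in AE, and its response to each differed between the lines. In AE it went from 1.09 and 1.85 CPM to 13.7 and 14.4 CPM with TGFb, a log2 change of 3.24 ± 0.44 (adjusted p = 8.4e-04). In WT the levels were 8.79 and 10.8 CPM untreated and 8.11 and 9.56 CPM with TGFb, which overlapped (-0.15, 95% interval -1.001 to 0.71, adjusted p = 0.83). The difference between these responses was 3.39 ± 0.58 (adjusted p = 0.0032). With Wnt3a, AE libraries went from 3.80 and 1.32 CPM to 39.4 and 30.6 CPM, a change of 3.77 ± 0.44 (adjusted p = 2.0e-04). It was 4.72 without untreated replicate 1 and 3.20 without untreated replicate 2, and called in both. The WT libraries were 9.75 and 8.51 CPM untreated and 22.2 and 17.9 CPM with Wnt3a, without overlap, and the change of 1.13 ± 0.39 was not called (adjusted p = 0.13). The line difference for Wnt3a was 2.63 ± 0.57 (adjusted p = 0.034), and it was not called in the 3-day libraries alone (adjusted p = 0.33). Untreated AE libraries (1.09 to 3.80 CPM) lay below untreated WT libraries (8.51 to 10.8 CPM), with a log2 difference of -2.27 ± 0.30 (adjusted p = 4.3e-05).

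Plaur, the membrane-anchored receptor of urokinase, was lower in AE, and its responses were not called in the fit of all libraries. Untreated WT libraries ranged from 16.4 to 36.4 CPM with a median of 24.2 CPM. Untreated AE libraries ranged from 2.52 to 16.5 CPM with a median of 3.79 CPM, and replicate 1 of the 3-day group was the high one. The log2 difference between the lines was -1.98 ± 0.45 (adjusted p = 0.0025). It was -3.16 in the 4-day libraries (adjusted p = 0.0025) and -0.81 in the 3-day libraries (adjusted p = 0.30), and the difference between the days was not tested. With TGFb, WT libraries were 31.3 and 36.4 CPM before and 24.5 and 33.3 CPM after, and AE libraries 4.05 and 3.53 CPM before and 5.56 and 6.32 CPM after. The changes were -0.23 (95% interval -1.53 to 1.08) and 0.65 (-0.72 to 2.02), with adjusted p of 0.83 and 0.66. In the 4-day libraries alone the AE change of 0.64 (adjusted p = 0.034) and the line difference of 0.87 (adjusted p = 0.035) were called. With Wnt3a, WT libraries went from 16.4 and 17.0 CPM to 21.6 and 37.5 CPM (0.83, 95% interval -0.49 to 2.15, adjusted p = 0.42). In AE they were 16.5 and 2.52 CPM untreated and 14.7 and 7.65 CPM with Wnt3a (0.23, -1.10 to 1.56, adjusted p = 0.89). Without untreated replicate 1 of that group the AE change was 2.15 (adjusted p = 0.017), and without untreated replicate 2 it was -0.57, and without Wnt3a replicate 1 it was -0.31, so its direction changed with which library was left out.

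**Figure D2:**
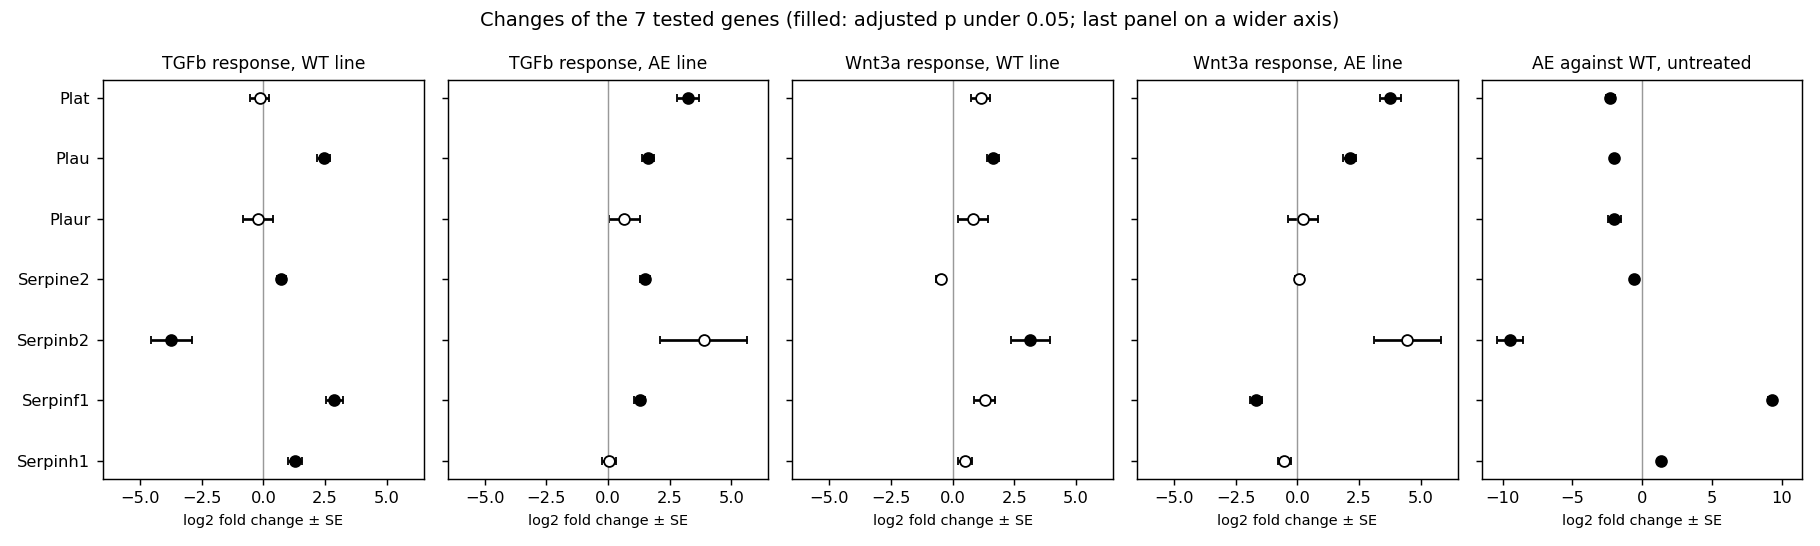
Log2 fold change with its SE (bars) of the 7 tested genes in the 4 responses and in AE against WT over untreated libraries, the last on a wider axis. Filled points have an adjusted p under 0.05; Plau is filled in all 5 panels, and Plaur only in the last.

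Serpine2, a secreted inhibitor of urokinase and thrombin, rose with TGFb in both lines. WT libraries went from 235 and 220 CPM to 385 and 372 CPM, a log2 change of 0.73 ± 0.20 (adjusted p = 0.015). AE libraries went from 116 and 126 CPM to 333 and 343 CPM, a change of 1.49 ± 0.20 (adjusted p = 7.9e-04). Leaving out any 1 of the 4 WT libraries kept the size (0.69 to 0.78) and ended the WT call (adjusted p 0.061 to 0.10). The line difference of 0.75 (95% interval 0.16 to 1.35) was not called (adjusted p = 0.13). It was called in the 4-day libraries alone (0.74, adjusted p = 0.0032) and with DESeq2 (0.78, adjusted p = 0.047). With Wnt3a, WT libraries went from 299 and 256 CPM to 217 and 178 CPM (-0.49 ± 0.19, adjusted p = 0.18), while AE libraries overlapped at 271 and 200 CPM untreated and 266 and 233 CPM treated (0.08, 95% interval -0.34 to 0.51, adjusted p = 0.87). Untreated AE was lower by -0.58 ± 0.14 (adjusted p = 0.0038) with overlapping libraries. That difference was -0.92 at 4 days (adjusted p = 0.0029) and -0.24 at 3 days (adjusted p = 0.33), and the change between the days was not tested.

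Serpinb2, the intracellular urokinase inhibitor, was high in WT and close to 0 in AE. In WT it fell with TGFb from 47.8 and 28.5 CPM to 3.24 and 2.51 CPM, a log2 change of -3.73 ± 0.85 (adjusted p = 0.0058). Without replicate 2 of the TGFb libraries this was -3.55 with an adjusted p of 0.062. With Wnt3a it rose in WT from 95.4 and 7.85 CPM to 567 and 340 CPM. The 2 untreated libraries of that comparison differed 12.2-fold, and both treated libraries lay above them. The change was 3.14 ± 0.79 (adjusted p = 0.047). It was 5.85 without untreated replicate 1 and 2.25 without untreated replicate 2, it was not called without Wnt3a replicate 2 (adjusted p = 0.092), and in the 3-day libraries alone the adjusted p was 0.28.

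In the AE line Serpinb2 had 6 counts over the 4 untreated libraries, against 3934 counts in the untreated WT libraries. The log2 difference was -9.46 ± 0.92 (adjusted p = 3.3e-06), and every AE library lay below every WT library. With TGFb, the AE counts over 2 libraries went from 2 to 31, a ratio of 16.3 with a 95% counting interval of 4.15 to 141. The fitted change of 3.87 ± 1.75 was not called (adjusted p = 0.22). In the 4-day libraries alone that change was 3.86 and called (adjusted p = 0.011). With Wnt3a the AE counts went from 4 to 95, a ratio of 23.4 (8.83 to 87.5). The fitted change of 4.46 ± 1.35 was not called (adjusted p = 0.062). The treated AE levels were 0.55 and 0.77 CPM with TGFb and 1.76 and 2.07 CPM with Wnt3a. The line difference in the TGFb response was 7.60 ± 1.81 (adjusted p = 0.021) and rests on the 2 counts of the untreated 4-day AE libraries. Leaving out any 1 of 7 of the 8 libraries ended that call (adjusted p 0.050 to 0.091 among those 7). The value ran from 6.82 without untreated AE replicate 1 to 10.7 without untreated AE replicate 2, and the AE change from 3.09 to 6.94 in the same fits. In the 4-day libraries alone the line difference for TGFb was 7.58 and called (adjusted p = 2.8e-04). For Wnt3a the line difference was 1.32 (95% interval -2.36 to 5.01, adjusted p = 0.65).

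Serpinb2 sits on chromosome 1 in a row of clade B serpin genes, whose levels were read from the same libraries. Serpinb8, whose start lies 89.0 kb downstream, was also lower in untreated AE, at 0.60 ± 0.37 CPM against 11.6 ± 3.19 CPM in WT (SD, 4 libraries each), with a log2 difference of -4.37 (adjusted p = 9.8e-08). Wnt3a raised Serpinb8 in both lines, by 1.41 in WT (adjusted p = 0.030) and 1.65 in AE (adjusted p = 0.012). Serpinb11, at -138.6 kb from the Serpinb2 start, had 14 counts over 2 untreated libraries and 164 with Wnt3a in WT, and 1 and 73 counts in AE. Serpinb10, the neighbour whose GENCODE model overlaps, had 10 counts untreated and 179 with Wnt3a in WT and 0 counts in the 8 AE libraries. Serpinb7, at -78.2 kb, had 36 counts in the 4 untreated WT libraries and 0 in the 4 untreated AE libraries. These 3 low genes passed the filter through the groups where they are high, so their counts are given with no test. Serpinb5 (maspin), at -639.7 kb and known from mammary epithelium, had a smaller difference between the untreated lines, with 468 CPM in WT against 305 CPM in AE (-0.59, adjusted p = 0.040). These are the clade B genes within 1 Mb of Serpinb2 that have a row in the count table. Genes of the region without a row were not read. They were taken for their position after the data were seen, and Serpinb12 among those with a row was not tested. In the GENCODE M21 models Serpinb2 and Serpinb10 overlap on the same strand, where a strand setting does not separate their reads. In the GRCm38.p6 coordinates Serpinb2 ends at 107525600 and Serpinb10 starts at 107528994, without overlap. The annotation used for counting is not given, so whether reads of these genes are shared is not known.

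**Figure D3:**
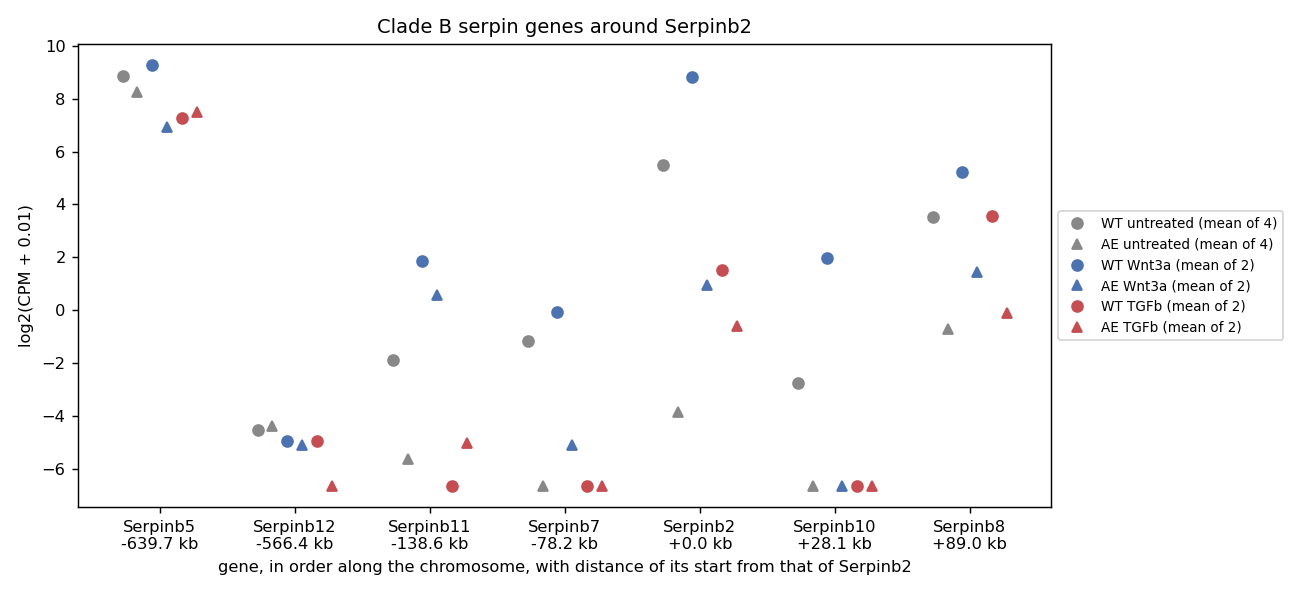
Mean level of 7 clade B serpin genes as log2(CPM + 0.01), in their order along chromosome 1 with the distance of each start from that of Serpinb2 in kb; circles are WT and triangles AE, grey untreated (mean of 4 libraries), blue Wnt3a and red TGFb (mean of 2 each). Points at the bottom of the axis are groups at 0, and the grey triangle lies below the grey circle for Serpinb5, Serpinb11, Serpinb7, Serpinb2, Serpinb10 and Serpinb8.

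Serpinf1, the secreted anti-angiogenic serpin, was almost unread in WT and abundant in AE. Untreated WT libraries held 0.15 to 0.42 CPM (22 counts over 4 libraries) and untreated AE libraries 135 to 174 CPM (15010 counts). The log2 difference was 9.29 ± 0.25 (adjusted p = 1.3e-10), and it was 8.92 at 4 days and 9.65 at 3 days. The summed fibroblast markers moved the same way between the lines, as given above, and of the 11 markers 7 were at 0 in both 4-day untreated WT libraries (Col3a1, Dcn, Lum, Thy1, Fap, Dpt and Pi16), against 1 (Lum) in the AE libraries of that time. The part of those cells or genes in the Serpinf1 level was not tested.

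TGFb raised Serpinf1 in both lines. In AE it went from 135 and 140 CPM to 330 and 340 CPM, a change of 1.29 ± 0.23 (adjusted p = 0.0040), which was not called without either of the 2 untreated libraries (adjusted p 0.064 and 0.054). In WT it went from 0.15 and 0.42 CPM to 2.06 CPM in both libraries, or from 13 to 88 counts, a change of 2.87 ± 0.34 (adjusted p = 6.4e-05). It was 2.27 without untreated replicate 1 and 3.71 without untreated replicate 2, and called in both. The summed fibroblast markers were 73.0 to 92.7 CPM in those WT libraries with TGFb, and 491 to 537 CPM in the AE libraries with TGFb. The endothelial sum was 46.2 to 48.2 CPM before and 140 to 147 CPM after TGFb in AE, with 1 of 8 markers at a mean of 1 CPM or more, and 1.11 to 1.27 CPM before and 5.21 to 6.02 CPM after in WT. Of 3 endothelial markers tested, 0 were called with TGFb in AE (6.09% of all genes rose and 4.32% fell). In WT 2 of the 3 rose and 0 fell (14.7% and 12.9% of all genes). The part of either marker set in the Serpinf1 level was not tested. The line difference was -1.58 ± 0.42 (adjusted p = 0.035). It was not called in 7 of 8 fits without 1 library, and without untreated WT replicate 1 it was -0.98 (adjusted p = 0.25).

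With Wnt3a, Serpinf1 fell in AE from 174 and 161 CPM to 54.6 and 50.3 CPM, a change of -1.68 ± 0.23 (adjusted p = 7.5e-04). In WT it was 0.15 and 0.25 CPM untreated and 0.40 and 0.61 CPM with Wnt3a, or 9 and 23 counts, and the change of 1.30 ± 0.43 was not called (adjusted p = 0.13). The line difference in the Wnt3a response was -2.97 ± 0.49 (adjusted p = 0.0094), and in the 3-day libraries alone its adjusted p was 0.13. The fibroblast marker sum was 253 to 290 CPM in the Wnt3a-treated AE libraries, against 329 to 581 CPM in their untreated libraries. Of 8 fibroblast markers tested, 1 rose, 1 fell and 6 were not called there (4.59% and 4.74% of all genes rose and fell). The part of those markers in the Serpinf1 change was not tested.

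Serpinh1, the collagen chaperone, was higher in untreated AE and rose with TGFb in WT. Untreated WT libraries ranged from 193 to 283 CPM and untreated AE libraries from 416 to 665 CPM, without overlap, and the log2 difference was 1.37 ± 0.20 (adjusted p = 9.6e-05). With TGFb, WT libraries went from 221 and 283 CPM to 494 and 737 CPM, a change of 1.29 ± 0.28 (adjusted p = 0.0044). Without TGFb replicate 2 the change was 0.98 (adjusted p = 0.057), and without untreated replicate 1 it was 1.12 (adjusted p = 0.061). AE libraries were 665 and 589 CPM untreated and 659 and 639 CPM with TGFb (0.05, 95% interval -0.55 to 0.65, adjusted p = 0.96), so the treated WT and AE libraries lay in the same range. The line difference was -1.24 (95% interval -2.09 to -0.39) and was not called (adjusted p = 0.074). It was called at a similar size in the 4-day libraries alone (-1.25, adjusted p = 0.0059), with DESeq2 (adjusted p = 0.029) and with the GC and length correction (adjusted p = 0.018). With Wnt3a, WT libraries were 193 and 203 CPM untreated and 221 and 341 CPM treated (0.51 ± 0.28, adjusted p = 0.30), and AE libraries 643 and 416 CPM untreated and 367 and 368 CPM treated (-0.52 ± 0.28, adjusted p = 0.34).

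Serping1, the C1 inhibitor, was near the limit of detection in every library and is described by its counts. The 4 untreated WT libraries held 1 count and the 4 untreated AE libraries 28 counts, a ratio of 26.03 with a 95% counting interval of 4.30 to 1064. Of the 28, 16 came from replicate 1 of the 3-day group. Over all 16 libraries there were 5 counts in WT and 46 in AE, a ratio of 8.46 (3.37 to 27.3). In a fit without the filter on low counts, the untreated lines differed with an adjusted p of 0.0041, and its adjusted p in the other 6 comparisons was at least 0.51. These intervals cover counting error only.

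**Figure D4:**
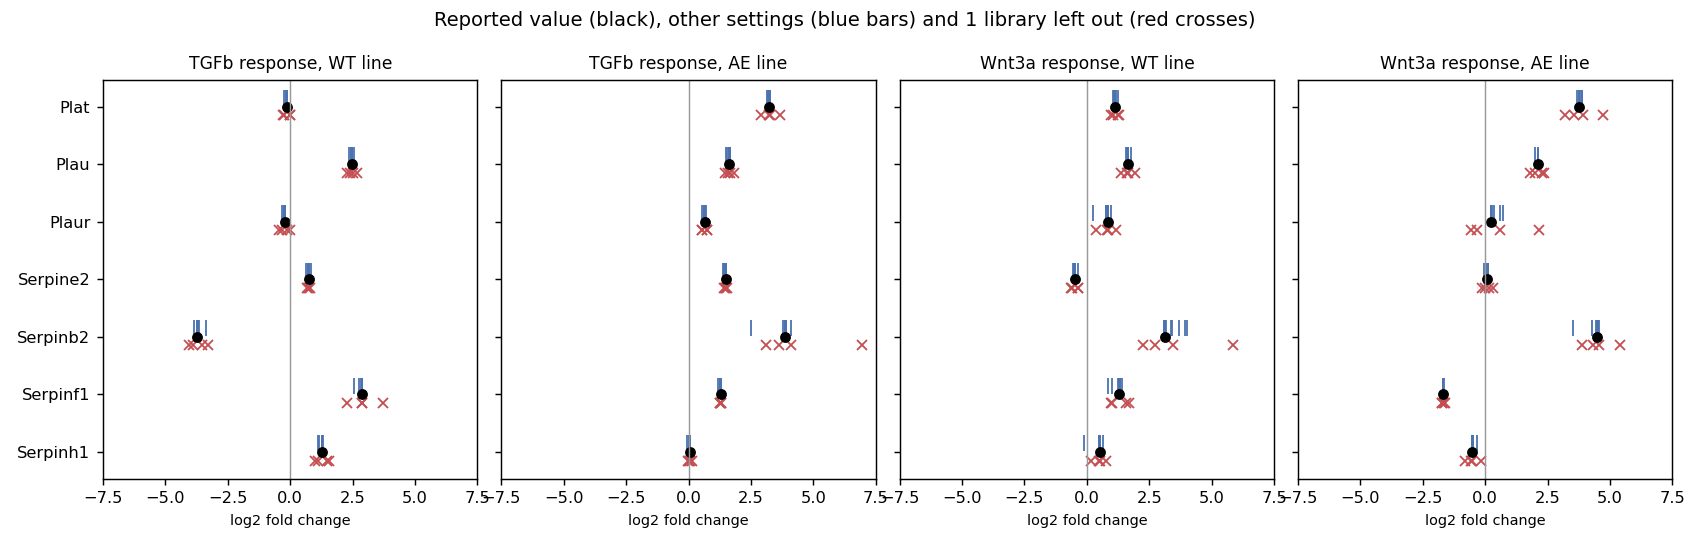
Log2 fold change of the 7 tested genes in the 4 responses, as reported (black points), under other settings of the fit (blue bars) and with 1 library left out (red crosses). Plau stays on the right of 0 in all 4 panels, and Serpinb2 spreads from 2.25 to 5.85 in the Wnt3a response of WT.

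For the difference between the lines in their responses, 2 of 7 genes were higher in AE than WT (Plat and Serpinb2) and 1 lower (Serpinf1) for TGFb, against 5.04% and 3.79% of all genes tested (8.83% in all). As given above, the Serpinb2 and Serpinf1 calls for TGFb were lost in most fits without 1 library. With limma the Serpinf1 difference for TGFb was -1.28 and not called (adjusted p = 0.11). For Wnt3a, 1 was higher (Plat) and 1 lower (Serpinf1), against 1.18% and 1.16% (2.34% in all). In edgeR's fit of the 3-day libraries alone, 0 of 7 were called for the Wnt3a difference (2 at an unadjusted p under 0.05) and 0 of 7 for Wnt3a in WT (4 at an unadjusted p under 0.05), where 20 of all genes were called, while Plat, Plau and Serpinf1 were called in the Wnt3a response of AE in that fit too.

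The genes that work beside these 8 were counted in 6 lists. The lists too were chosen with earlier results of these data known, so their counts describe and do not test. Each count stands against the share of all genes tested that was called. With TGFb 14.7% rose and 12.9% fell in WT, and 6.09% rose and 4.32% fell in AE. With Wnt3a the shares were 2.26% and 2.02% in WT and 4.59% and 4.74% in AE. In untreated AE 27.4% were higher and 26.4% lower. Of 13 tested partners of the plasminogen system, 6 rose and 0 fell with TGFb in WT, and 2 rose and 1 fell in AE. Plasminogen itself (Plg) had 0 counts in the 8 WT libraries and 6 counts in the 8 AE libraries. The plasminogen-binding annexin Anxa2 was lower in untreated AE (-1.45, adjusted p = 9.8e-05) and its changes with TGFb or Wnt3a were not called in either line. The integrin subunits Itgb3 and Itgb5, receptors of the matrix protein vitronectin, rose with TGFb in WT by 4.78 and 2.57 (adjusted p = 1.5e-06 and 2.1e-04), and Itgb5 also rose in AE by 1.82 (adjusted p = 0.0063). Alpha-2-macroglobulin (A2m), a broad protease inhibitor, had 0 counts in untreated WT and 2184 counts in untreated AE, and in AE its log2 change was -3.71 with TGFb (adjusted p = 0.0022) and -7.46 with Wnt3a (adjusted p = 1.6e-04). Among the 13, 1 rose and 1 fell with Wnt3a in WT, 1 rose and 2 fell with Wnt3a in AE, and 8 were higher and 2 lower in untreated AE.

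Of 9 tested genes of coagulation at the cell surface, 5 rose and 1 fell with TGFb in WT (14.7% and 12.9% of all genes). In AE 3 rose with TGFb (6.09% of all genes). Tissue factor (F3), which starts the coagulation cascade, rose with TGFb in WT from 16.2 ± 3.60 to 78.0 ± 11.9 CPM (adjusted p = 9.2e-05) and fell with Wnt3a in AE from 78.1 ± 28.1 to 23.3 ± 5.01 CPM (adjusted p = 0.0018). Its inhibitor Tfpi rose with TGFb in AE by 1.72 (adjusted p = 0.033). The protein C receptor Procr rose with Wnt3a in WT by 3.93 (adjusted p = 0.0023) and was the 1 gene of the 9 called there. With Wnt3a in AE 3 rose and 1 fell (4.59% and 4.74% of all genes). In untreated AE 5 were higher and 3 lower than in WT (27.4% and 26.4% of all genes).

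Of 18 tested pericellular serine proteases and their Kunitz or Kazal inhibitors, 5 rose and 5 fell with TGFb in WT (against 14.7% and 12.9%). Prss23 rose from 176 to 1436 CPM (3.03 ± 0.25, adjusted p = 5.1e-06), while the kallikrein Klk10 fell from 73.4 to 0.19 CPM (-8.57 ± 0.59, adjusted p = 1.6e-06) and the secreted protease inhibitor Slpi from 151 to 3.45 CPM (-5.45 ± 0.76, adjusted p = 2.2e-04). In AE 1 rose and 2 fell with TGFb. The 1 was Htra1, a secreted serine protease, which rose with TGFb by 2.13 (adjusted p = 0.0036) and with Wnt3a by 2.47 (adjusted p = 0.0013). With Wnt3a 0 rose and 1 fell in WT and 4 rose and 2 fell in AE. In untreated AE 9 were higher and 5 lower (27.4% and 26.4% of all genes).

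Of 21 collagen-folding genes beside Serpinh1, 13 rose and 1 fell with TGFb in WT (14.7% and 12.9% of all genes). Their median log2 change there was 1.57 against 0.06 over all genes. In AE 4 rose and 1 fell with TGFb (6.09% and 4.32% of all genes). The prolyl 4-hydroxylase subunit P4ha2 rose in WT from 0.85 to 15.6 CPM (4.17 ± 0.38, adjusted p = 8.8e-06). The prolyl 3-hydroxylase P3h2 fell in all 4 responses, by -3.83 and -2.73 with TGFb and -2.82 and -4.50 with Wnt3a in WT and AE (adjusted p of at most 6.4e-04). In untreated AE 16 of the 21 were higher than in WT, as Serpinh1 was, and 0 were lower (27.4% and 26.4% of all genes). With Wnt3a 1 rose and 1 fell in WT, and 0 rose and 5 fell in AE, among them the lysyl hydroxylase Plod1 from 97.5 ± 19.9 to 20.1 ± 3.05 CPM (adjusted p = 0.0053). The fibroblast marker sums given for Serpinf1 moved with TGFb in WT and with the line here too. With TGFb in AE the sum was 268 to 278 CPM before and 491 to 537 CPM after, where Serpinh1 changed by 0.05. The part of those markers was not tested.

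Of 12 tested complement genes beside Serping1, the median log2 difference in untreated AE against WT was 3.87. Of the 12, 9 were higher and 0 lower in untreated AE (27.4% and 26.4% of all genes). Among these C1ra, a protease that Serping1 inhibits, stood at 7.25 ± 0.30 CPM in AE and 0.60 ± 0.15 CPM in WT (3.57 ± 0.26, adjusted p = 3.0e-07). With TGFb 3 rose and 1 fell in WT and 1 rose in AE, and Masp1, a lectin-pathway protease that Serping1 also inhibits, rose in both, from 1 to 3816 counts over 2 libraries in WT and from 36 to 305 in AE (adjusted p = 3.7e-06 and 0.0055). With Wnt3a 0 of the 12 were called in WT by edgeR, DESeq2 or limma (4 at an unadjusted p under 0.05 by each), while edgeR called 3 with the GC and length correction. In AE 0 rose and 1, the central complement component C3, changed by -1.39 (adjusted p = 0.0060).

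Of 44 other serpin genes counted, 17 were tested. Of the 17, 13 were lower and 2 higher in untreated AE (26.4% and 27.4% of all genes). Their median log2 difference was -4.37 against 0.01 over all genes. These counts include Serpinb7, Serpinb10 and Serpinb11, which passed the filter through the groups where they are high. With TGFb 9 rose and 3 fell in WT (14.7% and 12.9% of all genes) and 6 rose and 0 fell in AE (6.09% and 4.32%). With Wnt3a 5 rose and 1 fell in WT and 6 rose and 1 fell in AE. Serpina3h rose with TGFb in AE from 0.28 to 13.5 CPM (5.49 ± 0.55, adjusted p = 1.4e-04) and with Wnt3a in AE from 0.65 to 16.3 CPM (4.63 ± 0.51, adjusted p = 1.4e-04). It belongs to a cluster of near-identical Serpina3 copies, between which reads can be split, so the share of each copy is uncertain.

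The genes whose log2 level followed a member most closely over the 8 group means were taken as the 3 with the highest Pearson correlation. They were Ddit4l (r = 0.97), Arhgef3 (0.96) and Rdh10 (0.96) for Plat, and Mllt11 (0.99), Stom (0.98) and Trim16 (0.98) for Plau. For Plaur they were Ly6e (0.98), Lad1 (0.98) and Dhx32 (0.98), and for Serpine2 Nav2 (0.92), Lox (0.91) and Zeb1 (0.90). For Serpinb2 they were Mtap (0.99), Eef1b2 (0.98) and Adam8 (0.98), for Serpinf1 Itga11 (0.997), Tmtc1 (0.996) and Coro2b (0.996), and for Serpinh1 Psap (0.995), Ccn5 (0.99) and Ddr1 (0.99). Among the members themselves, over the same 8 means, Plaur and Serpinb2 had r = 0.84 and Plaur and Serpinf1 r = -0.90. These 8 points fall into the 2 lines, whose levels differ, and share their libraries, so the coefficients describe the pattern only.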

How the data were processed

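RNA of 2 MMTV-PyMT lines was sequenced from polyadenylated RNA as single reads, per the labels' protocols. STAR and the mm10 build are named in the submitters' processing notes. Not given in the sources used here: an aligner version, the tool that counted reads, its strand setting and the annotation. Deposited by the authors were whole-number counts of reads per gene and library, although the table's name speaks of CPM. Symbols and coordinates came from the GRCm38.p6 gene table, which named 19613 of 19665 rows, and transcript length and GC content from GENCODE M21.

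Genes with at least 1 CPM in 2 libraries were tested in R 4.3.3 with edgeR 4.0.16 (TMM scaling, quasi-likelihood fit of 1 mean for each of the 8 groups over 16 libraries, 8 residual and 4.05 prior degrees of freedom, common dispersion equal to a biological variation of 0.26). P-values were adjusted by Benjamini-Hochberg, with a threshold of 0.05. The SE is the log2 fold change divided by the square root of F. Promoters were RefSeq's for GRCm38.p6. The steps were tested on simulated counts. No pair of replicates agreed within sampling noise (chi-square per degree of freedom 4.96 to 213), and all libraries were kept.

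All 8 members are named. Beside Plg and Anxa2, each list gave up to 3 called genes per comparison, those with the largest absolute change among genes reaching a mean of 5 CPM in a group, of which the text gives fewer for length, and some are not reported here. Neighbours of Serpinb2 were added after seeing the data. Members and lists were chosen with earlier results of these data known. Markers covered mammary epithelium, fibroblasts, endothelium, immune cells and adipocytes: in the highest library the endothelial sum was 147 CPM and the adipocyte sum 2.55 CPM. Alternatives were DESeq2 1.42.0, limma 3.58.1 on log2(CPM + 0.1), other scalings and filters, replicate blocks, single experiments, a correction for GC content and length (12692 of 13172 genes), and leaving out each library.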

Additional observations from a re-analysis of the deposited data

Results flagged for a closer look

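Of 16 groups of 4 untreated libraries (8 genes in 2 lines), 2 held a library that stood far from the other 3. Chance gives about 1 in 20 such groups only where the 4 values are normal draws from 1 population. Each group here joins 3-day and 4-day libraries in CPM, and the second flag is a single count among zeros. The rate that chance would give here is therefore not known. Plaur was 16.5 CPM in replicate 1 of the untreated 3-day AE libraries, against 2.52 to 4.05 CPM in the other untreated AE libraries. Serping1 was 0.0471 CPM in replicate 2 of the untreated 4-day WT libraries, which is 1 count against 0 in the others.

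A tested difference between the lines in the same response drew attention to 5 results. Plat's log2 change with TGFb was 3.39 higher in AE than in WT, and its change with Wnt3a 2.63 higher. Serpinb2's change with TGFb was 7.60 higher in AE, where it rests on 2 untreated counts. Serpinf1's change was -1.58 for TGFb and -2.97 for Wnt3a as AE minus WT.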

How the results depend on the processing

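Of 525 gene-level values under settings other than a left-out library, 486 kept their direction and side of the threshold, 27 became called, 7 lost a call and 5 changed sign. The 5 were changes that were not called: Serpinb2 in the Wnt3a line difference (-0.49 with limma), Serpinh1 with TGFb in AE (-0.053 with total-count scaling), and, with the GC and length correction, Serpinh1 with Wnt3a in WT (-0.13), Serpine2 with Wnt3a in AE (-0.049) and Plaur in the Wnt3a line difference (0.12). Leaving out 1 library changed a sign in 8 of 280 values. The ranges were -0.29 to 0.0080 for Plat with TGFb in WT, -0.036 to 0.14 for Serpinh1 with TGFb in AE, -0.57 to 2.15 for Plaur and -0.12 to 0.32 for Serpine2 with Wnt3a in AE, and -1.39 to 1.32 for Plaur and -1.39 to 2.25 for Serpinb2 in the Wnt3a line difference. The cause was not tested.

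Serpinb2 with Wnt3a in AE, not called as reported, had an adjusted p of 0.0023 with DESeq2, 0.019 with limma, 0.024 with no filter on low counts and 0.044 with total-count scaling. With TGFb in AE its adjusted p was 0.033 with DESeq2 and 0.011 with edgeR in the 4-day libraries alone. Plat's line difference for Wnt3a was lost in 4 of 8 fits without 1 library (2.06 to 3.59).

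Counts of genes called moved by over 1.5 times as follows. DESeq2 called 1291 genes for Wnt3a in WT and 703 for the Wnt3a line difference, with 5 members in the TGFb line difference, and limma called 542 for the Wnt3a line difference. In the fit of all libraries, comparing only the 4-day untreated groups gave 4583 for AE against WT. Fits of 1 experiment gave 7213 (TGFb in WT), 4517 (TGFb in AE), 3890 (TGFb difference), 20 (Wnt3a in WT), 357 (Wnt3a in AE) and 8 (Wnt3a difference), with 7, 0 and 0 members in the TGFb difference, Wnt3a in WT and the Wnt3a difference. The GC and length correction, added after seeing the data, gave 6160, 3470, 2834, 2056, 2820 and 1232 in the same order, with 5 members in the TGFb difference. Under it, AE against WT split into 3392 higher and 5750 lower (3609 and 3473 as reported), TGFb in AE into 1564 and 1906 (802 and 569), and Wnt3a in WT into 852 and 1204 (298 and 266), and the median change of all genes in AE against WT was -0.22. Total-count scaling, also added, shifted that median to -0.11 for TGFb in AE, 0.13 for Wnt3a in WT, 0.11 for AE against WT and -0.15 for the Wnt3a difference.

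With a replicate block within each line and experiment, 6158 genes were called for TGFb in WT, 3213 for TGFb in AE, 2583 for the TGFb difference, 4664 for Wnt3a in WT, 2926 for Wnt3a in AE and 3944 for the Wnt3a difference, with 6, 5 and 4 members in the TGFb difference, Wnt3a in WT and the Wnt3a difference. No label says that a number marks a shared culture or day. Deviations of same-numbered libraries correlated at 0.58, 0.21, 0.72 and 0.40 in the 4 responses, with 2 pairs each. Across experiments the same measure was 0.50 to 0.62 in WT and -0.10 to 0.24 in AE, and between the lines -0.57 to 0.035. Over genes, the log2 ratio between replicates had a Spearman correlation with GC content of -0.78 to -0.68 in WT groups and 0.014 to 0.64 in AE groups. The cause of these patterns was not tested. Under the block, Plat (1.13, adjusted p = 0.012), Serpine2 (-0.49, adjusted p = 0.013) and Serpinf1 (1.32, adjusted p = 0.043) were added for Wnt3a in WT, Serpinb2 (adjusted p = 0.041) for Wnt3a in AE, Plau (-0.83, adjusted p = 0.042), Serpine2 (0.76, adjusted p = 0.013) and Serpinh1 (-1.22, adjusted p = 0.014) for the TGFb difference, and Serpine2 (adjusted p = 0.028) and Serpinh1 (adjusted p = 0.028) for the Wnt3a difference. It called 3 of 12 complement genes for Wnt3a in WT. A block with numbers crossed between the lines, added after seeing the data, gave 709 genes for the Wnt3a difference.

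Without 1 library, genes called ran from 2101 to 2363 (TGFb in WT, with 2 to 4 members), 352 to 459 (TGFb in AE), 637 to 717 (TGFb difference, 1 to 3 members), 281 to 3139 (Wnt3a in WT, 1 to 3 members), 577 to 1158 (Wnt3a in AE) and 114 to 1897 (Wnt3a difference, 1 to 3 members). The lowest and highest counts for Wnt3a in WT came without Wnt3a replicate 2 and replicate 1. AE against WT called all 7 members in each of its 8 such fits. A group left with 1 library is assumed to vary like the others. With 2 libraries a group, small changes of the low genes Serpinb2 in AE, Serpinf1 in WT and Serping1 were not detectable at this depth.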
